A study of Homo sapiens with 9 samples.

Results

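Ago-HITS-CLIP peaks were examined on the TACC gene family, which in the human genome comprises TACC1, TACC2 and TACC3. A peak was taken as a member when its midpoint lay on the coding strand within the hg19 gene body of one of these 3 genes, and 6 of the 8460 deposited peaks met this rule. TACC1 held 4 of them, TACC2 held 1 and TACC3 held 1. The list for the miR-342-3p mimic (3450 peaks) gave 2 of the 6, and that for the miR-342-5p mimic (5010 peaks) gave 4.

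The libraries were made from MDA-MB-231HM (231HM) cells, a highly metastatic variant of the triple-negative breast cancer line MDA-MB-231, labelled as wild type. The cells received a miRVana mimic of miR-342-3p, of miR-342-5p or a negative control at 20 nM, with 3 replicates of each, and were UV cross-linked 48 h later. Ago2 was immunoprecipitated, the RNA held in the complexes was sequenced, and the 9 libraries were reduced to 2 peak lists, one for each miR-342 strand over the negative control mimic. In each list the replicates had been merged, so a peak carried 1 score and no replicate error, and both lists rested on the same negative control libraries. The score is a whole number that the study describes as reads above background, with a minimum of 5. Library depth is unknown here, and differences between scores are therefore given as descriptions, without a test. RNA abundance was not part of the lists either, so a site with no peak on an RNA of low abundance and a site that Argonaute did not occupy cannot be told apart, and the identity of the line could not be checked against marker genes.

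The TACC (transforming acidic coiled-coil) proteins share a C-terminal coiled-coil domain and act at centrosomes and on the microtubules of the mitotic spindle. TACC3 is phosphorylated by the kinase Aurora A and works with the microtubule polymerase ch-TOG (CKAP5) and with clathrin on spindle fibres, while TACC1 and TACC2 also have described roles in the interphase cell. A microRNA guides Argonaute to an RNA mainly by pairing of its seed, the bases at positions 2 to 8 from its 5′ end, with a matching site that most often works from the 3′UTR.

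Both strands of the miR-342 hairpin were transfected as separate mimics, and they have different seeds. Their mature sequences from RefSeq are shown 5′ to 3′ with the seed in capitals, since each site described here is defined by it.
miR-342-3p: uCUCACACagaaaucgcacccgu
miR-342-5p: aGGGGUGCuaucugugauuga
A 7mer-m8 site matches bases 2 to 8 and is GUGUGAG (miR-342-3p) or GCACCCC (miR-342-5p). An 8mer carries an A after that match, a 7mer-A1 carries the A but lacks the match to base 8, and a 6mer matches bases 2 to 7 alone. A 7mer or 8mer site was called bound when it lay whole within 50 nt of the summit of a peak for the same mimic on the same strand.

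The sites that carried peaks on TACC3 are shown with flanking reference sequence (hg19, plus strand), the seed match in capitals, beside the coding site in the same exon that had no peak.
TACC3 bound site 1, chr4:1729904-1729933: gccugcggaggaGCACCCCugcagggucug
TACC3 bound site 2, chr4:1729956-1729985: cugcggguguggGCACCCCcgugccagcag
TACC3 unbound site, chr4:1730168-1730197: accagcaaaaggGCACCCCcaccaaggaga
The single 8mer for miR-342-5p in TACC2 coding sequence and the single exonic site for miR-342-3p in TACC3 had no peak, and are shown because they are intact seed matches that stayed unbound at the minimum score.
TACC2 unbound 8mer, chr10:123845556-123845585: ugccaagcugaGCACCCCAuggccagcugc
TACC3 unbound miR-342-3p site, chr4:1741458-1741487: gcugaggagcagGUGUGAGgagcuccacgg
The narrow miR-342-5p peak in TACC2 lay on a stretch that resembles the mimic itself rather than its seed match. It is aligned here to mature miR-342-5p, with the bases that match in capitals.
TACC2 intron, chr10:123980086-123980105: AGGGGUGCUgAUGUGAUUGA
mature miR-342-5p: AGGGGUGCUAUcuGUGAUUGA

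The family members differed in the mimic that gave a peak, in the part of the gene that carried it and in the score. With the miR-342-3p mimic, TACC1 alone of the 3 genes had peaks, and both lay in the 3′UTR. Of all 20162 annotated protein-coding genes, 11.8% were hit on their own strand by this list, 4.57% within the 3′UTR and 3.39% by more than 1 peak. With the miR-342-5p mimic, all 3 genes had a peak, in coding sequence for TACC1 and TACC3 and in an intron for TACC2, and none had one in the 3′UTR. For the miR-342-5p list these shares were 11.8%, 2.8% and 4.61%, and TACC1 was again the member with more than 1 peak, though its adjoining peaks in each list came to 1 when neighbours were counted together. TACC1 was the member with peaks in both lists, as were 4.06% of protein-coding genes. No peak of either list lay on the opposite strand within a TACC gene body, and no other protein-coding gene on the same strand overlapped one.

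In the miR-342-3p list the TACC1 peaks had scores of 494 and 20. In the miR-342-5p list the TACC1 peaks had scores of 14 and 15, the TACC2 peak 271 and the TACC3 peak 14. Set against a median score of 24 in the miR-342-3p list (quartiles 13 and 49) and 19 in the miR-342-5p list (quartiles 11 and 37), 2 TACC peaks stood near the top of their list and the other 4 below its median.

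**Figure D1:**
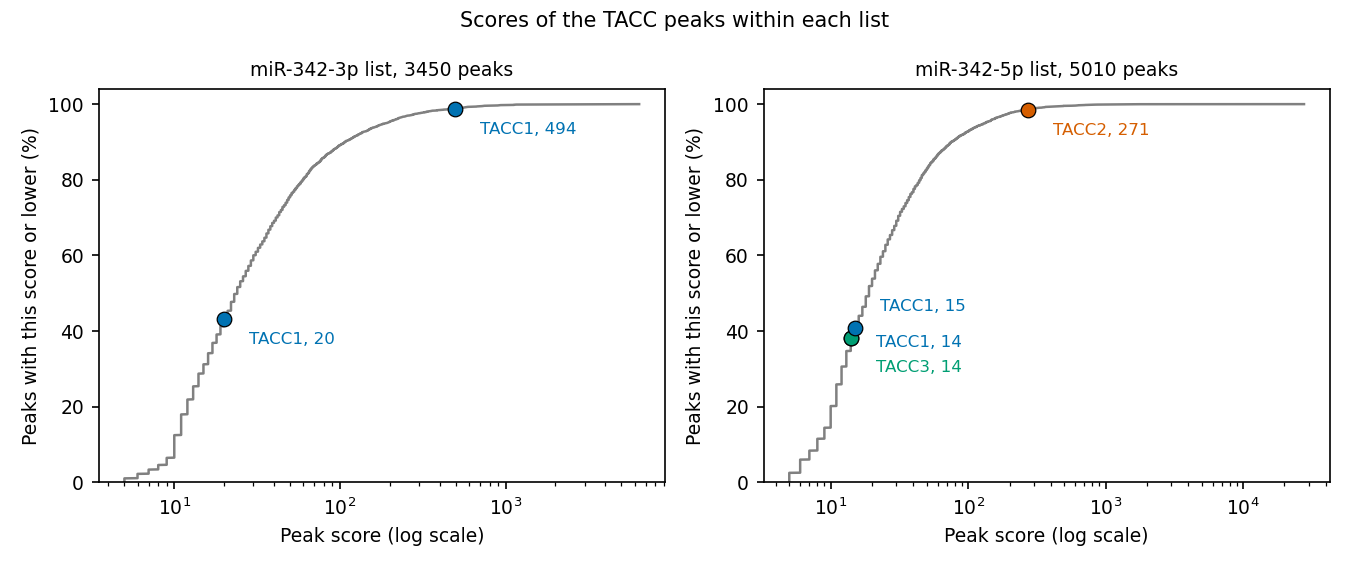
Cumulative share of peaks (vertical axis, percent) by score (horizontal axis, log scale) for the 3450 miR-342-3p peaks and the 5010 miR-342-5p peaks, with the TACC peaks as coloured points labelled by gene and score. TACC1 at 494 and TACC2 at 271 sit on the flat upper end of the curves, and the peaks at 14, 15 and 20 sit on the steep lower part.

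TACC1 (ENSG00000147526, chromosome 8, 38585704-38710546, plus strand) had the miR-342-3p peaks of the family. The one with a score of 494 ran from 38710253 to 38710445 in the 3′UTR, with a summit at 38710329. Only 41 of the 3450 miR-342-3p peaks had a higher score. Among the 1164 miR-342-3p peaks in 3′UTRs, whose median score was 26, 21 were higher. Among the 275 of these with a 7mer or 8mer site near the summit, with a median of 33, 5 were higher. The peak was 193 nt wide against a list median of 65 nt, and 99.6% of the list was narrower.

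The centre of a 7mer-m8 site for miR-342-3p (38710322-38710328) lay 4 nt before this summit. It was the one site in the TACC genes that the miR-342-3p peaks bound. In the list as a whole, 20.6% of peaks had a 7mer or 8mer site within 50 nt of the summit, against 0.638% with such a site on the opposite strand.

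Another, weaker TACC1 peak lay just upstream, from 38710176 to 38710249, with a score of 20, and 41.2% of the list scored lower. It was separated from the strong peak by 3 nt. Its own summit was 96 nt from the seed site, and it had no 7mer, 8mer or 6mer within 50 nt of it. Peaks this close to another were common, since 17.6% of miR-342-3p peaks lay within 10 nt of a neighbour on the same strand. Whether the pair was one bound stretch divided by the peak caller was not tested, and with neighbours counted as 1 peak, an alternative chosen after seeing the data, TACC1 had 1 miR-342-3p peak. Of the consecutive 25-nt words of the weaker peak, 1 of 2 occurred once in the genome and the other 2 times, whereas all 7 words of the strong peak occurred once.

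The 3′UTR of TACC1 is long: its annotated exons add up to 5112 nt, more than in 91.3% of the 19696 genes with a 3′UTR (median 1270 nt). It held 2 sites for miR-342-3p, or 0.391 per kb against 0.18 per kb over all 3′UTRs. The proximal one, a 7mer-A1 at 38706147-38706153, lay 608 nt into the 3′UTR and had no peak. The distal 7mer-m8, which was bound, lay 4175 nt further on and 218 nt before the annotated end of the RNA. Across all protein-coding genes, 4.46% of 7mer-m8 and 1.05% of 7mer-A1 sites for miR-342-3p in 3′UTRs were bound. Among all 7mer and 8mer sites there, 4.07% were bound, or 21.2% in genes that had a miR-342-3p peak. The second share is raised because bound sites fall in such genes by definition.

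The sites of TACC1 also differed in their predicted pairing with the rest of the miRNA. By RNAduplex, which gives the minimum free energy of a duplex of 2 RNAs (more negative means more stable), the proximal site paired with miR-342-3p at -11.3 kcal/mol and the distal site at -29.4 kcal/mol. The distal duplex had 19 base pairs, 7 in the seed and 11 beyond base 8. The proximal duplex had 16, 7 in the seed and 8 beyond base 8. Its pairs include base 8, which a 7mer-A1 does not match, so this duplex was not the plain seed pairing of that site. With the summit and 50 nt to each side of it, the strong peak was at -29.4 kcal/mol, more stable than 99.7% of the miR-342-3p list (median -16, SD 4.2) and than 98.7% of the 712 peaks with a site (median -19.1). The neighbouring peak with a score of 20 was at -9 kcal/mol, and 3.48% of the list was weaker. For miR-342-5p, the strand not transfected in these libraries, the same windows gave -17.9 and -16.6 kcal/mol.

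The distal stretch is carried by 2 of the 9 basic coding transcripts of TACC1, the canonical one among them, both with a 3′UTR of 5008 nt. The 3′UTRs of the other 7 are at most 2773 nt long and end before it, while the proximal site is part of 5 transcripts. The lists do not show which of these transcripts 231HM cells made.

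**Figure D2:**
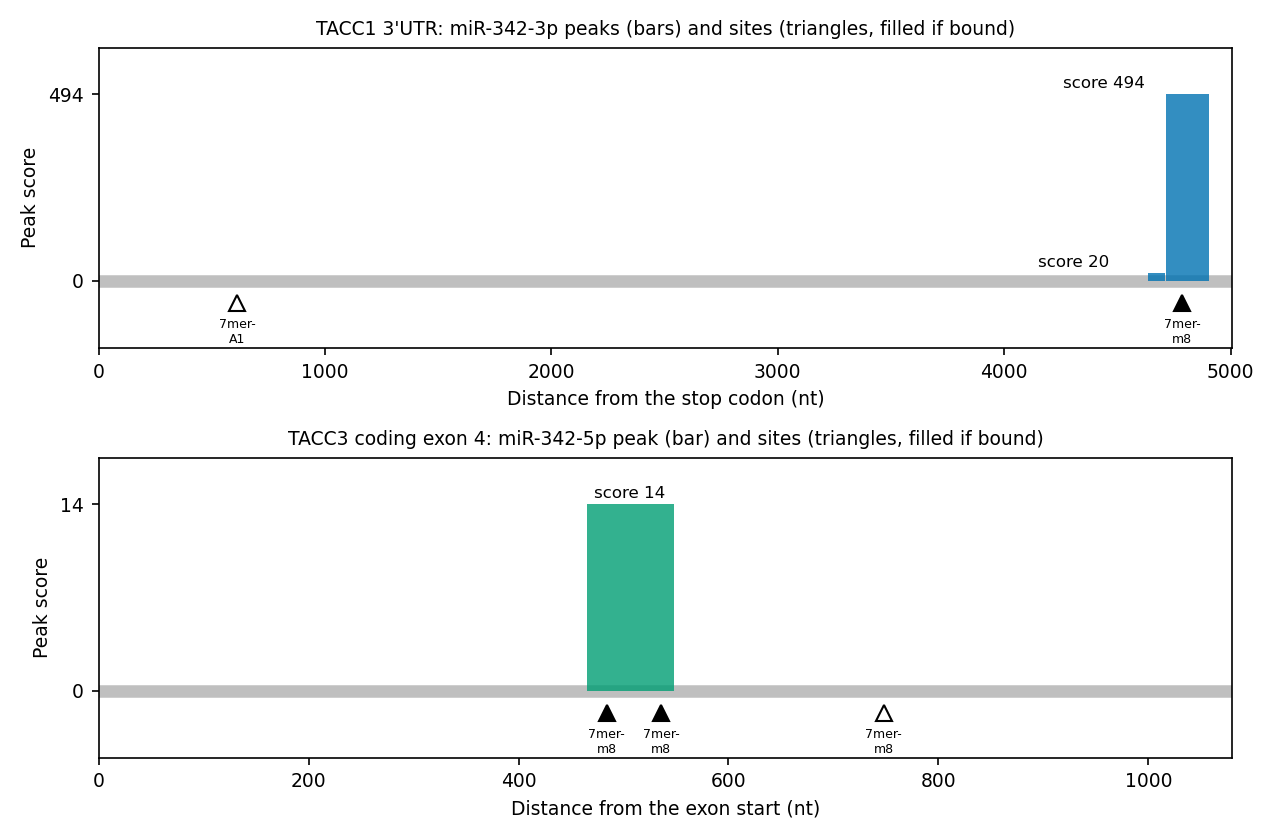
Upper panel, the TACC1 3′UTR by distance from the stop codon (nt), with the miR-342-3p peaks as bars whose height is the score and the 7mer sites as triangles, filled where bound. Lower panel, coding exon 4 of TACC3 by distance from the exon start (nt), with the miR-342-5p peak and sites drawn in the same way. The TACC1 peaks with scores of 494 and 20 adjoin near the distal end, far from the proximal site, and the TACC3 peak covers 2 of 3 sites.

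For miR-342-5p the picture on TACC1 was a different one. Both peaks lay in coding exon 3 of the canonical transcript (38677040-38678153, 1114 nt), at 38677882-38677959 with a score of 14 and at 38677961-38678011 with a score of 15. They were 1 nt apart, and 39.3% of miR-342-5p peaks had a neighbour within 10 nt. Of the list, 34.7% scored below the first and 38.1% below the second.

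Neither had a 7mer or 8mer site for miR-342-5p within 500 nt of its summit, and TACC1 had no such site in any exon. A 6mer at 38677982-38677987 lay near both summits, with its centre at 27.5 nt from the first and at -9.5 nt from the second, where a negative distance lies before the summit. A 6mer without a longer site was found at 16% of the list's peaks. Their duplex energies, -16.9 and -16.3 kcal/mol, were near the median of -16.8 kcal/mol of the 3355 peaks without a site. The exon region is coding in 7 of the 9 transcripts, and the canonical transcript alone holds both it and the distal 3′UTR stretch, so the peaks of the 2 mimics on TACC1 could come from the same transcript or from different ones.

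TACC2 (ENSG00000138162, chromosome 10, 123748678-124014060, plus strand) had 1 peak, for miR-342-5p, with a score of 271. Of the 5010 peaks in the list 73 scored higher, and of the 395 in introns, whose median score was 15, 6 did. It ran from 123980085 to 123980107 and was 23 nt wide, while the list median was 78 nt 2.36% of the list was narrower, and 2.85% of it was at most 23 nt wide. The peak lay within an intron of 7897 nt in all 13 basic coding transcripts, 3741 nt from the upstream exon and 4133 nt from the downstream one.

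There was no 7mer, 8mer or 6mer site for miR-342-5p within 50 nt of the TACC2 summit on the strand of the peak. What the stretch held instead was a near-copy of miR-342-5p, printed above: its 20 nt at 123980086-123980105 can be turned into the 21 nt of the mature miRNA with 3 edits (changed, inserted or deleted bases), and 19 bases matched. The seed itself was in the copy, not its complement. Taken from the opposite strand, the fewest edits were 11. The other miR-342-5p peaks on TACC1 and TACC3 needed 7 to 9 edits.

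Near-copies of this kind were rare in the list: 16 of 5010 peaks, or 0.319%, held one with at most 3 edits, against 0.0399% on the opposite strand. One of the 16, with a score of 27731, was identical to the miRNA and lay at its own hairpin, and TACC2 was 1 of 3 in a protein-coding gene. The 16 peaks were 19 to 50 nt wide with a median of 23 nt, and 15 of them were at most 40 nt, whereas the other 4994 had a median width of 78 nt. Their median score was 44.5 against 19 for the others, and none had a 7mer or 8mer site. The 23-nt sequence of the TACC2 peak occurred once in the genome. Whether reads of the transfected mimic contributed to it was not tested. Without peaks that hold a near-copy, a setting chosen after seeing the data, TACC2 had 0 peaks in either list.

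**Figure D3:**
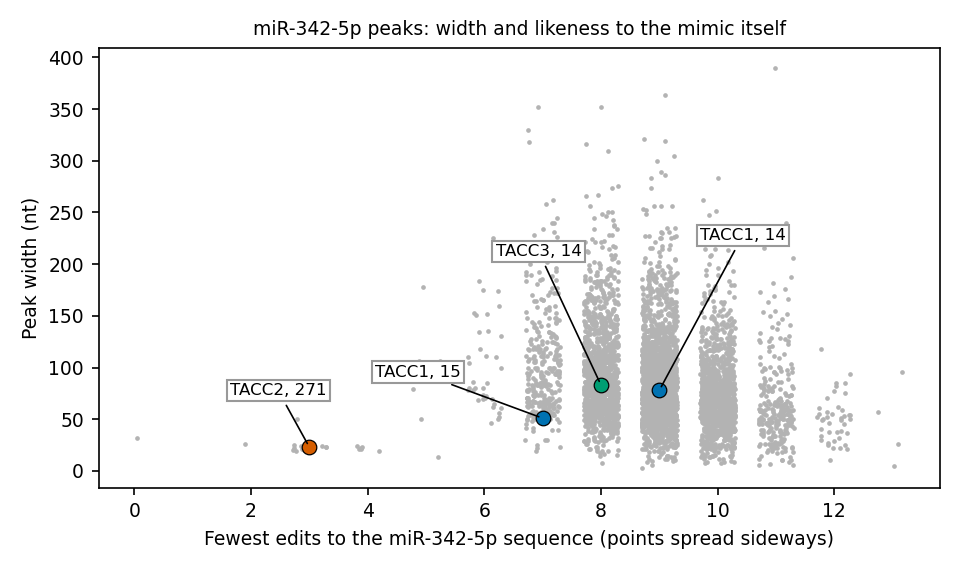
Width (vertical axis, nt) of each of the 5010 miR-342-5p peaks against the fewest edits that turn a stretch of it into mature miR-342-5p (horizontal axis, grey points spread sideways for legibility). The TACC peaks are coloured and labelled by gene and score. TACC2 lies among the narrow peaks at 3 edits, and the TACC1 and TACC3 peaks lie within the main cloud at 7 to 9.

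The exons of TACC2 held no 7mer or 8mer site for the 3p strand and 6 for the 5p strand, all in coding sequence. With 9095 nt of coding exons this was 0.66 per kb, where all protein-coding genes together had 0.191 per kb. None of the 6 (1 8mer, 3 7mer-m8 and 2 7mer-A1) was bound. Over all coding exons 14.6% of such sites were bound, and 53.1% in genes with a miR-342-5p peak. Bound sites fall in such genes by definition, which raises the second share. TACC2 counts as such a gene through its intronic peak alone, which had no site, so the second share is not a fair standard for it. The duplex energies of these unbound sites ranged from -22.9 to -12.8 kcal/mol, and the 8mer was at -18.4 kcal/mol.

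TACC3 (ENSG00000013810, chromosome 4, 1714585-1746898, plus strand) had 1 peak, for miR-342-5p, with a score of 14. It ran from 1729900 to 1729982 (83 nt) with a summit at 1729927, and 34.7% of the list scored less. The peak lay in coding exon 4 (1729435-1730514, 1080 nt), which is in all 3 basic coding transcripts. Its score was also below the median of 19 for the 3514 miR-342-5p peaks in coding exons.

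Of all TACC peaks it had the most seed sites. Its 2 7mer-m8 sites, at 1729916-1729922 and 1729968-1729974, had their centres 8 nt and 44 nt from the summit and were 52 nt apart. In the list 33% of peaks had at least 1 7mer or 8mer site, 2.24% had more than 1, and 1.46% had a site on the opposite strand. The window around the summit paired with miR-342-5p at -25.8 kcal/mol, which was more stable than 99.2% of the list (median -17.6, SD 2.91) and than 98% of the 1655 peaks with a site (median -19.1). This is the most stable duplex found anywhere in the window. It was not the duplex computed at either site with its near flanks, which gave -24 and -21.6 kcal/mol. Against miR-342-3p the same window gave -18.7 kcal/mol. The window was 70.3% G and C.

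One more 7mer-m8 in the same exon (1730180-1730186), 256 nt from the summit, was not bound. Taken one at a time, the bound sites paired at -24 and -21.6 kcal/mol and the unbound one at -19.1 kcal/mol, with 14, 14 and 13 base pairs. With 3 sites in 2514 nt of coding exons, TACC3 had 1.19 sites per kb for miR-342-5p. A further 7mer-m8 in its 5′UTR (1724064-1724070, -21.3 kcal/mol) was not bound. The 3′UTR of TACC3 is 161 nt, longer than in 9.68% of genes, and held no site for either strand.

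For miR-342-3p, TACC3 had 1 exonic site, a 7mer-m8 in coding sequence at 1741470-1741476, and no peak. Its duplex energy was -21.6 kcal/mol with 17 base pairs, a more stable duplex than that of the unbound TACC1 site. Over all coding exons 6.92% of miR-342-3p sites were bound.

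**Figure D4:**
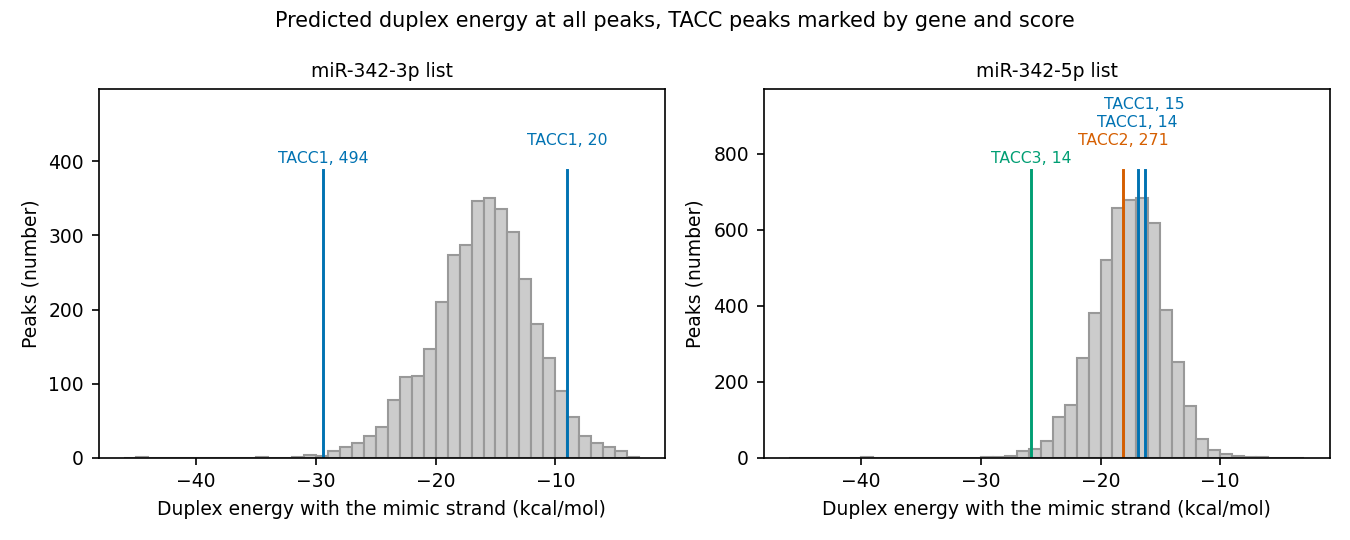
Number of peaks (vertical axis) by predicted duplex energy of the transfected miR-342 strand with the summit and 50 nt on each side (horizontal axis, kcal/mol) in each list. Lines mark the TACC peaks by gene and score. TACC1 at a score of 494 (-29.4 kcal/mol) and TACC3 at 14 (-25.8 kcal/mol) lie in the stable tail, and TACC1 at 20 (-9 kcal/mol) in the weak tail.

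Within the family, score and predicted pairing did not run in parallel. The TACC3 peak had 2 sites and -25.8 kcal/mol but a score of 14, the TACC2 peak had a score of 271 with no site and -18.1 kcal/mol, and the strong TACC1 peak was high in both measures. These are 6 peaks in 2 lists whose scaling relative to each other is not stated, and no correlation was computed. The TACC2 peak lay on the near-copy of the mimic, and whether mimic reads contributed to its score was not tested.

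Counting all sites in the gene bodies, the TACC genes held 105 7mer and 8mer sites for miR-342-3p, of which 1 was bound, and 69 for miR-342-5p, of which 2 were bound. Most of them, 102 and 59, were intronic, and none of these was bound. Intronic sites were seldom bound in any gene: over all protein-coding genes 0.047% of those for the 3p strand and 0.192% of those for the 5p strand were bound, or 0.318% and 1.39% in genes with a peak in that list, so the absence of bound intronic sites is not particular to the TACC genes. TACC2, which has the longest gene body, held 65 and 45 of them. In 3′UTRs and coding exons together, 1 of 3 miR-342-3p sites and 2 of 9 miR-342-5p sites were bound. Over all protein-coding genes, 4.07% of miR-342-3p sites in 3′UTRs and 6.92% of those in coding exons were bound. The 9 miR-342-5p sites were all coding, and over all coding exons 14.6% of sites for this strand were bound. With so few TACC sites, the difference from these shares was not tested. No site of one miR-342 strand was within reach of a summit in the list of the other mimic, and no site was formed across an exon junction of the basic transcripts.

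**Figure D5:**
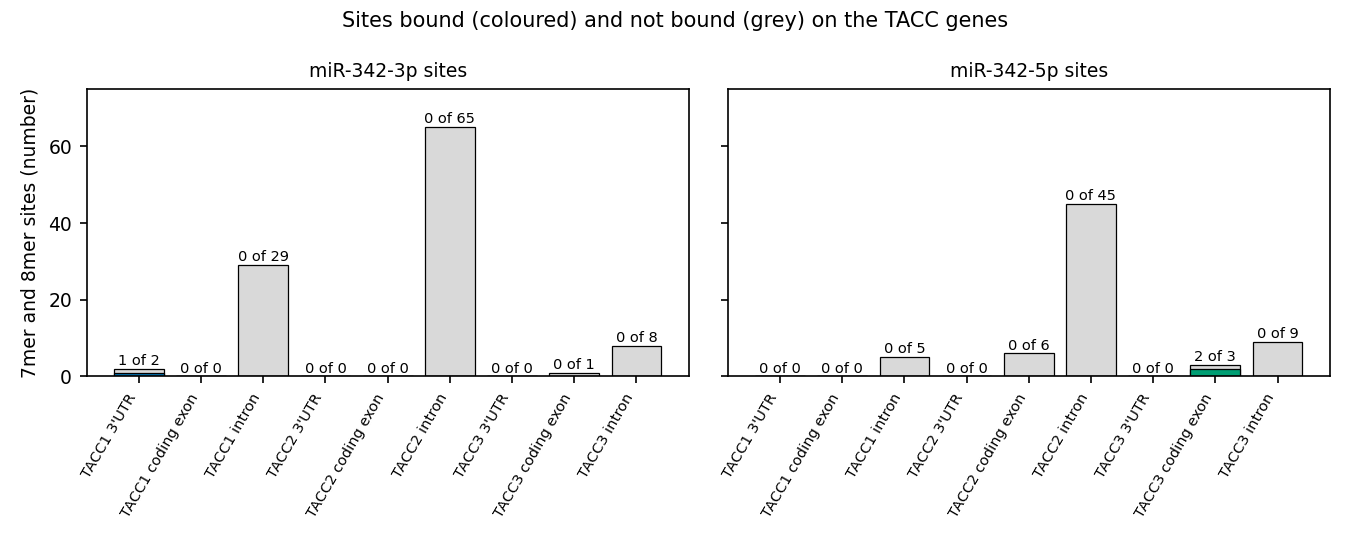
Number of 7mer and 8mer sites (vertical axis) on each TACC gene by location and miR-342 strand, with bound sites coloured at the foot of the grey bars and the counts above them. The 5′UTR, with 1 unbound miR-342-5p site in TACC3, is not drawn. Bound sites appear in the TACC1 3′UTR (1 of 2) and in TACC3 coding exons (2 of 3), and all intronic bars are grey.

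Peaks were then looked up for 34 genes whose products bind TACC proteins, act with them at centrosomes and spindles, or are fused to them in tumours. For miR-342-3p, 9 of the 34 (26.5%) had a peak and 4 (11.8%) had one in the 3′UTR. For miR-342-5p, 9 (26.5%) had a peak and 2 (5.88%) had one in the 3′UTR. Genes with a peak in both lists numbered 5 (14.7%). Over all protein-coding genes, as given above, 11.8% had a peak in each list, 4.57% and 2.8% had one in the 3′UTR, and 4.06% had one in both lists. These 34 genes were chosen by hand, with earlier results of these data known, and are not matched to the rest in RNA abundance or length. Their shares therefore do not test whether such genes are hit more often than others. A seed site was near the summit of 1 of the 12 miR-342-3p peaks on these genes (8.33%, against 20.6% of that list) and of 3 of the 11 miR-342-5p peaks (27.3%, against 33%).

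Among genes whose products bind TACC3 or act with it, CLTC (clathrin heavy chain) had peaks in both lists. There were 3 miR-342-3p peaks in its coding exons, with scores of 30, 218 and 115. In its 5′UTR there were 2 miR-342-5p peaks, with scores of 6 and 54. None of these had a site. CKAP5 had a coding peak for miR-342-5p, with a 6mer and a score of 24. CLTA (a clathrin light chain) and GTSE1, a clathrin-bound microtubule protein, had coding miR-342-5p peaks with scores of 15 and 13. ARNT, a transcription factor subunit that TACC3 binds, was hit by miR-342-3p in the 3′UTR with a score of 98, a 6mer, and a run of 20 alternating G and U bases. The kinase AURKA and its spindle activator TPX2 had no peak in either list.

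Of the other genes for centrosome and mitotic proteins, PCNT (pericentrin, a centrosomal scaffold) had coding peaks in both lists. Its miR-342-3p peaks had scores of 19, with a 7mer-m8 site, and 11. Its miR-342-5p peak had a score of 30 and a 7mer-m8 site. NUMA1, which anchors microtubules at spindle poles, had miR-342-5p peaks with scores of 13 in the 3′UTR and 26 in a coding exon. AURKB, the kinase of the chromosomal passenger complex, had a 3′UTR peak for miR-342-3p (score 45, no site) and a coding peak for miR-342-5p (score 49, with a 7mer-A1). MAPRE1, a microtubule plus-end protein, and KIF11, a spindle kinesin, had coding miR-342-3p peaks with scores of 94 and 11. The scaffolds CEP192 and CDK5RAP2, the gamma-tubulin gene TUBG1, NEDD1 and PLK1 were among the 21 of 34 genes (61.8%) with no peak in either list. Having no peak was more common still among all protein-coding genes. Of these, 11.8% were hit with each mimic taken singly and 4.06% with both. The 34 genes were chosen by hand, so this difference was not tested.

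Of the receptor genes that neighbour TACC genes and form fusions with them, FGFR1 had a 3′UTR peak in both lists. Its score was 21 for miR-342-3p without a site, and 62 for miR-342-5p with a 7mer-A1. FGFR3 was hit by miR-342-3p in the 3′UTR with a score of 10 on a run of 19 alternating G and U bases. SNRPG, a spliceosomal Sm protein, had a coding peak with a score of 204 after the miR-342-3p mimic and one with a score of 14 after the other mimic.

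The genes with the most similar pair of highest scores were sought among all protein-coding genes by the distance between log2(score + 1) values in the 2 lists. For TACC1 (494 and 15) these were HMGB2 (634 and 20, at a distance of 0.53) and IGF1R (350 and 19, at 0.59). For TACC2 (no miR-342-3p peak and 271) RBMX (267) was the nearest. For TACC3 (no miR-342-3p peak and 14) 57 genes had the same pair of values, among them ARHGAP35 and ARHGEF17.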

How the data were processed

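Per the labels and the study's methods, reads were trimmed with cutadapt 1.13, mapped to hg19 with TopHat2 2.0.13 and collapsed by unique molecular identifier with UMI-tools, alignments were filtered on quality with Samtools, and MACS2 2.1.1.20160309 called peaks by strand for each mimic over the negative control. The quality threshold, and so how reads that map to several places were treated, is not given in the sources used here. The deposited values are peak positions, summits and a score, which the authors describe as reads above background. Replicates were merged, so no per-library value, depth or replicate error could be given and no test was made.

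Genes and locations came from GENCODE release 44 mapped to GRCh37 (basic protein-coding transcripts), by peak midpoint, where a 3′UTR took precedence over a coding exon, then a 5′UTR, then an intron. Sequences came from GRCh37 and from RefSeq (miRNAs, table of build GRCh38.p14). Sites were searched as letters on the sense strand. Duplex energies were computed with ViennaRNA 2.7.2 on the summit and 50 nt to each side, and near-copies with edlib on the peak with 10 nt on each side. The search was tested on simulated data and found 3000 of 3000 planted sites and 500 of 500 near-copies. These copies were made by replacing up to 3 bases. Inserted or deleted bases, as in the TACC2 copy, were not planted. The members, the partner list and the settings were chosen with earlier results of these data known. Named were every TACC peak, every partner gene with a peak and the 2 genes nearest to each TACC gene in score, of which 1 is not reported here. Alternatives were other minimum scores, windows, site types, location rules and duplex windows.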

Additional observations from a re-analysis of the deposited data

How the results depend on the processing

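Over all alternatives 102 values were recomputed: 70 stayed within the set margin and 32 moved. The margin was a fixed ratio for counts and the SD of the list for duplex energies. The 70 include counts that were 0 under every setting, such as miR-342-3p peaks on TACC2 and TACC3, and totals that repeat the counts of single genes. They are therefore not a measure of robustness. Of the 2 miR-342-3p and 4 miR-342-5p TACC peaks, 1 and 1 remained at a score above 50, and 1 and 1 above 100. Both miR-342-3p peaks were in the 3′UTR, of which 1 was left at either minimum. With neighbours within 50 nt counted as 1 peak, there was 1 miR-342-3p peak and there were 3 for miR-342-5p, with 1 of them on TACC1 in place of 2. At a score above 50 or above 100, 0 miR-342-5p TACC peaks had a site. With 8mers alone, 0 peaks had a site and 0 sites were bound for either mimic, since all bound sites were 7mer-m8. Against the other mimic's list 0 and 0 sites were bound. Within 25 nt of a summit 1 of the 2 miR-342-5p sites on TACC3 remained bound. With 6mers added, 3 miR-342-5p peaks had a site in place of 1. Partner genes with a miR-342-3p peak fell to 4 above a score of 50 and 2 above 100, and those with a miR-342-5p peak to 2 and 0. The shares of all protein-coding genes at these limits were not computed, so these counts have no background to be set against. With 51 nt around the summit the duplex energy was -12.7 kcal/mol at the TACC1 miR-342-5p peak with a score of 14 and -13.4 kcal/mol at the TACC2 peak. No paired analysis was possible because the replicates were merged in both lists. The unknown depth limits what an absent peak means: a site without one had no peak at the minimum score of 5, which does not show that it was unoccupied.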
